A study of Mus musculus with 9 samples.

Results

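The comparison described here is that of inguinal white adipose tissue with and without Zfp423 in adipocytes, in mice kept at room temperature. It rests on 6 of the 9 arrays of the series, chosen by their labels: 3 from knockout mice and 3 from control mice. The other 3 arrays, from cold-exposed controls, are used for the shared estimate of the spread and to test where the knockouts differed from cold-exposed tissue. Control mice at room temperature carried Adiponectin-rtTA, TRE-Cre and Zfp423+/+, and knockout mice carried Adiponectin-rtTA, Tre-CRE and Zfp423loxP/loxP. Thus all groups carried the adiponectin-driven doxycycline activator and the inducible Cre recombinase, and all received doxycycline in chow for 28 days from 8 weeks of age. The cold controls had the control genotype and spent the last 14 days of doxycycline at 6 °C. Adiponectin is made by mature adipocytes, so the Cre of this model acts in these cells, while the arrays measured RNA of the whole fat pad. Sex is not labelled, nor is it said whether each array had its own mouse, so p-values measure the spread between these samples, which may be technical.

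Zfp423 is a zinc finger transcription factor of the adipocyte lineage that helps white adipocytes keep their white identity, in part by holding back the early B-cell factors (Ebf) that drive thermogenic genes with the coregulator Prdm16. Thermogenic (brown and beige) adipocytes burn fatty acids and glucose in mitochondria whose inner membrane is made leaky to protons by uncoupling protein 1 (Ucp1). In inguinal fat, beige adipocytes appear among white ones in the cold, and the comparison asks which genes follow when Zfp423 alone is removed.

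Each value below is a deposited log2 expression value, given in the order of replicates 1, 2 and 3, and where values are set against each other the controls come first and the knockouts second. A difference is the mean of the knockout arrays minus the mean of the control arrays on this log2 scale, with the standard error of the limma fit and n = 3 arrays a group. Of 30750 genes named by 1 symbol, 16921 had a row at or above the median brightness of the table and were tested, and a gene passed where its limma p, adjusted over these genes by Benjamini-Hochberg, was under 0.05. A number marked unadjusted counts genes at a limma p under 0.05 before that adjustment.

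Adipocyte genes were bright on all arrays. Adiponectin (Adipoq) read 15.34, 14.92 and 15.29 in controls and 14.70, 14.76 and 14.72 in knockouts. Perilipin 1 (Plin1), the coat protein of the adipocyte lipid droplet, read 16.40, 16.18 and 16.33 against 15.68, 16.45 and 16.12. Both ranges lie near the top of the table, whose highest value was 19.93. Knockout replicates 1 and 2 were less alike (Pearson r = 0.9776 across the tested genes, which are not independent replicates) than knockout replicate 1 was to control replicate 2 (r = 0.9927). Each group had an array whose values fell between those of its partners on most genes. It was control replicate 3 for 60.4% of genes, knockout replicate 3 for 66.9% and cold replicate 2 for 53.1%, against 15.9% to 23.7% for the other arrays. The variance of control replicate 3 around the mean of the other controls was 0.0732 times the variance of the difference between those controls, and the same ratio was 0.0471 for knockout replicate 3 and 0.147 for cold replicate 2. Independent arrays of equal spread give 0.75. The labels do not say how these arrays were made. If they are not independent of their partners, n = 3 overstates the replicates, and all standard errors and p-values given here are too small. Counts are therefore given with and without the in-between arrays.

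Between knockouts and controls 62 genes passed (0.366% of those tested), of which 38 were higher in knockouts (0.225%) and 24 lower (0.142%). At an unadjusted p under 0.05 there were 2739 (16.2%). On all 62 genes the knockout and control arrays did not overlap. This was true of 2933 of all tested genes (17.3%), with the knockouts above the controls on 9.32% and below them on 8.01%. These shares, and the 16.2%, are the background for the counts of each list below. Over all tested genes the median difference was 0.02. Without the 3 in-between arrays 0 genes passed in limma, with 692 at an unadjusted p under 0.05. None passed without knockout replicate 3 (1972 at an unadjusted p under 0.05) or without cold replicate 2 (2294), and 1 gene passed without control replicate 1 and 1 without control replicate 3. By contrast, 836 genes passed without knockout replicate 1 and 369 without control replicate 2, and each of those sets held all 62. The calls below are therefore those of the 9-array fit, and the values of every array stand beside them.

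The targeted gene came first. Zfp423 read 8.74, 8.22 and 8.40 in controls and 7.56, 8.15 and 8.04 in knockouts. All 3 knockout arrays lay below all 3 controls, although knockout replicate 2 was only just below control replicate 2. The difference of -0.53 ± 0.20 did not pass (adjusted p = 0.255), and the two-sided exact permutation test gave p = 0.1, the smallest that 3 against 3 arrays allow. In the cold controls Zfp423 read 8.83, 8.72 and 8.40. The row sums up probes of the whole transcript in tissue that also holds cells without adiponectin, and the sources used here do not place its probes relative to the floxed exons.

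Of the 20 tested genes on the list of Zfp423, the Ebf factors and the partners of Prdm16, 0 passed in limma (3 at an unadjusted p under 0.05), with a median difference of -0.05. On 1 of them all knockout arrays were above the controls, and on 3, which were Zfp423, Ebf1 and Rb1, all were below. Prdm16, the coregulator that switches on the brown fat programme, read 7.26, 7.04 and 7.12 in controls and 7.19, 7.82 and 7.40 in knockouts, with knockout replicate 1 inside the control range. Ebf2, the Ebf factor that marks thermogenic adipocytes and precursors, read 9.63, 9.23 and 9.54 against 9.41, 9.98 and 9.59, so the groups overlapped. Ebf1 read 13.52, 12.93 and 13.30 against 12.51, 12.92 and 12.71, with all knockouts lower (-0.54 ± 0.16, adjusted p = 0.186). The retinoblastoma gene Rb1, a repressor of the brown fat programme, read 13.12, 12.79 and 12.97 against 12.41, 12.38 and 12.44. Its knockout arrays were tightly grouped below the controls (-0.55 ± 0.08, adjusted p = 0.0506).

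The effector genes of thermogenesis had the largest median difference of the 57 lists. Of 18 tested, 9 rose and 0 fell, 9 did not pass, and the knockout arrays lay above all controls on 15. The median difference was 3.31, against 0.02 over all tested genes, and 3.27 without the 3 in-between arrays. Ucp1 read 11.74, 13.07 and 12.42 in controls and 18.34, 19.92 and 19.68 in knockouts. Every knockout array was at least 5 log2 units above every control, and knockout replicate 2 stood next to the highest value of the table, 19.93. The rise of 6.90 ± 0.47 (adjusted p = 0.00864) was past the threshold, and Ucp1 also passed under 12 of 19 other settings (1 of them an array weighting that did not converge), with 6.73 and no call without the 3 in-between arrays. Cidea, a lipid droplet protein of thermogenic fat, read 13.37, 14.48 and 13.98 against 16.68, 17.92 and 17.42. Its groups did not overlap and it rose by 3.40 ± 0.36 (adjusted p = 0.0277), passing under 9 of 19 other settings, with 3.38 and no call without the in-between arrays. Dio2, the deiodinase that makes active thyroid hormone inside the cell, read 5.73, 5.95 and 6.03 against 7.65, 13.19 and 11.54. All knockouts were above all controls, but knockout replicate 1 exceeded the highest control by far less than the other knockouts did, and the difference of 4.89 ± 1.24 did not pass (adjusted p = 0.126). The exact two-sided permutation p was 0.1 for each of these genes, the smallest possible.

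**Figure D1:**
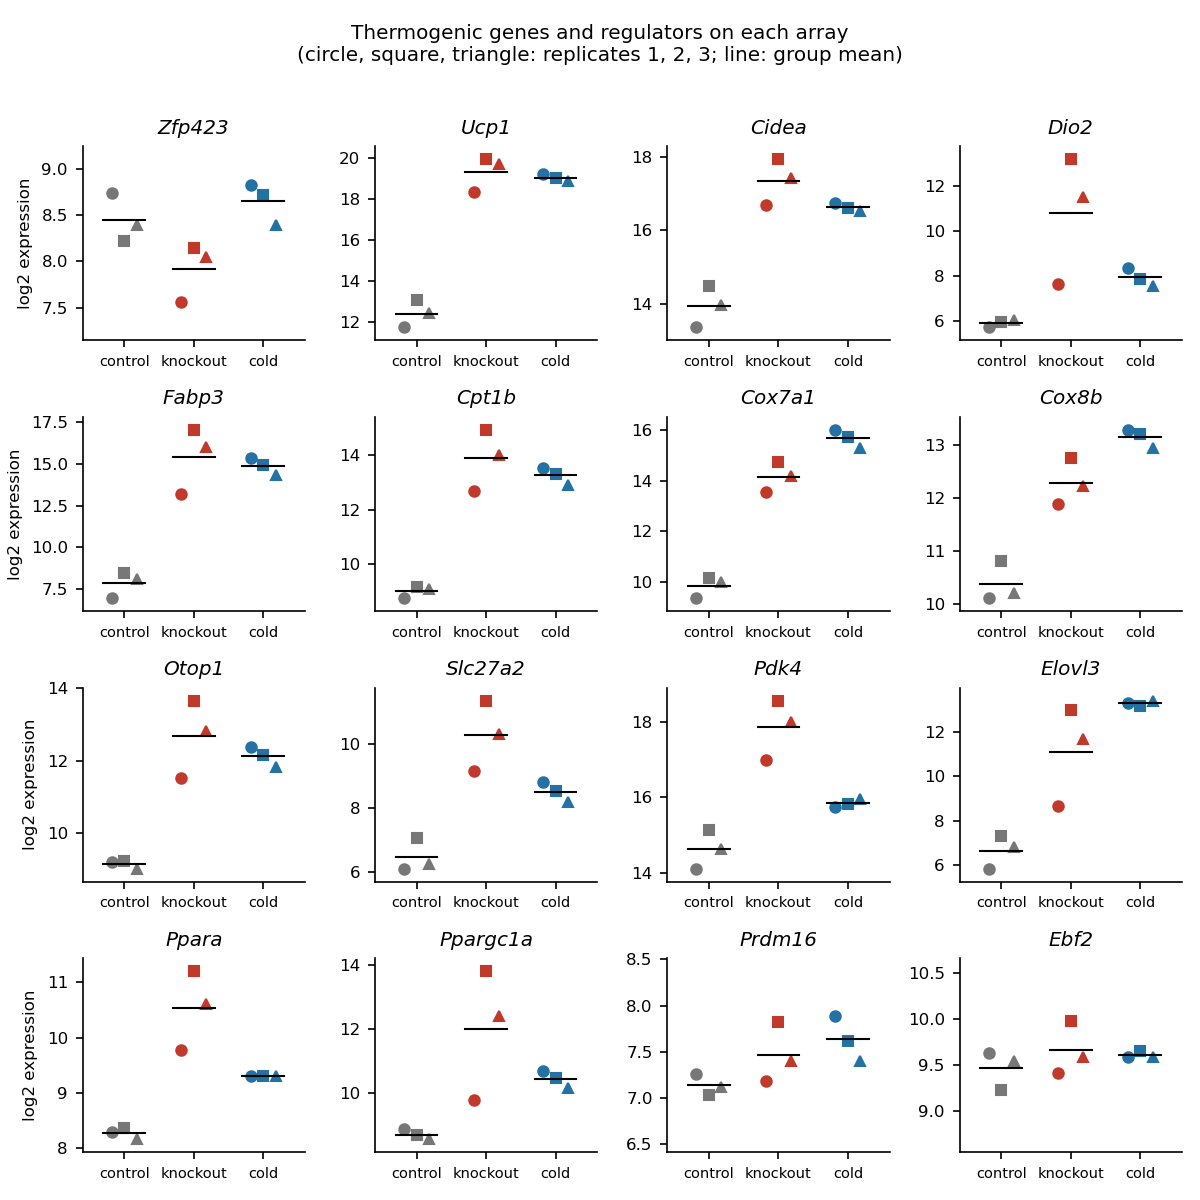
Log2 expression (vertical axis, scaled for each gene) of Zfp423, thermogenic effectors and regulators on each array of the control, knockout and cold groups (horizontal axis); circles, squares and triangles are replicates 1, 2 and 3 and lines are group means. Ucp1 sits between 11.74 and 13.07 in controls and between 18.34 and 19.92 in knockouts, while Ebf2 overlaps between the groups.

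Other effectors rose with groups that did not overlap. Fabp3, a cytosolic carrier of fatty acids in oxidative tissues, read 6.98, 8.50 and 8.14 in controls and 13.21, 17.01 and 16.02 in knockouts (7.54 ± 0.94, adjusted p = 0.0373). Cpt1b, the gate for fatty acid entry into mitochondria in muscle and brown fat, read 8.76, 9.15 and 9.11 against 12.69, 14.92 and 14.02 (4.87 ± 0.51, adjusted p = 0.0277). Cox7a1, a complex IV subunit of heart, muscle and brown fat, read 9.38, 10.18 and 9.99 against 13.55, 14.71 and 14.16 (4.29 ± 0.34, adjusted p = 0.0126). On each of these genes knockout replicate 1 was the lowest knockout and replicate 2 the highest, yet all lay far above the controls. Cox8b, a further complex IV subunit with this tissue pattern, read 10.12, 10.82 and 10.21 against 11.88, 12.75 and 12.23 (1.91 ± 0.26, adjusted p = 0.0469). Otop1, a proton channel found in brown fat, read 9.19, 9.23 and 9.01 against 11.53, 13.66 and 12.83 (3.53 ± 0.48, adjusted p = 0.0469). Slc27a2, which takes up and activates very long chain fatty acids, read 6.10, 7.06 and 6.26 against 9.17, 11.36 and 10.31 (3.81 ± 0.54, adjusted p = 0.0469). Here too replicate 1 was the lowest of the knockouts. Pdk4, the kinase that shuts off pyruvate dehydrogenase and spares glucose, read 14.10, 15.12 and 14.64 against 17.00, 18.56 and 17.99 (3.23 ± 0.41, adjusted p = 0.0376). A row named Fabp3-ps1, a pseudogene close in sequence to Fabp3, rose by 8.24 ± 1.07 (adjusted p = 0.0441), and the array cannot part the pair.

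A further 6 effectors, Dio2 among them, were higher on all knockout arrays without passing. Elovl3, an elongase of very long chain fatty acids, read 5.85, 7.30 and 6.84 in controls and 8.67, 12.95 and 11.69 in knockouts (4.44 ± 1.00, adjusted p = 0.0965). Plin5, which ties lipid droplets to mitochondria, read 8.69, 8.51 and 8.27 against 9.68, 12.19 and 10.85 (2.42 ± 0.55, adjusted p = 0.10). Kcnk3, a potassium channel of brown adipocytes, read 8.71, 8.69 and 8.66 against 9.56, 12.42 and 11.27 (2.40 ± 0.64, adjusted p = 0.136). Letmd1, a mitochondrial inner membrane protein, read 9.05 ± 0.05 in controls (mean and SD, n = 3) against 10.11, 12.17 and 11.18 (2.10 ± 0.45, adjusted p = 0.0901). Knockout replicate 2 stood more than 2 log2 units above replicate 1 on all 4 of these genes. Acot11, a thioesterase of brown fat, read 5.92, 6.30 and 6.17 against 7.21, 8.31 and 7.74 (1.63 ± 0.26, adjusted p = 0.0574), and it was higher in cold controls, at 9.77, 9.77 and 10.01, than in knockouts (2.10 ± 0.26, adjusted p = 0.0168). The secreted factor Nrg4 and the droplet protein Cidec overlapped between the groups, and Slc29a1 was listed at 7.16 on all 9 arrays. The beta-3 adrenergic receptor Adrb3 had no row of its own name and is not analysed here. Of the 9 tested markers enriched in beige fat, 0 passed in limma (2 at an unadjusted p under 0.05), and the median difference was 0.05. Differences ran from -0.60 to 0.94, and 5 of the 9 were positive. All knockouts were above the controls on 1 of these markers and below them on 2. Slc27a1, on the lower side, read 13.50, 12.94 and 13.16 against 12.77, 12.91 and 12.88 (-0.35 ± 0.15, adjusted p = 0.317).

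Promoters of 4 genes that rose are shown because they hold the nuclear receptor half-site AGGTCA within 250 bases before the RefSeq start, the kind of element that Ppara, thyroid hormone receptor and estrogen-related receptors bind as part of larger sites. Sequences are from RefSeq on GRCm38.p6, 5′ to 3′ on the strand of the gene, and capitals mark AGGTCA or, on the other strand, TGACCT. The Ucp1 window is chr8:83290098-83290347 on the plus strand, that of Slc27a2 is chr2:126552774-126553023 on the plus strand, that of Acadvl is chr11:70015429-70015678 on the minus strand and that of Sucla2 is chr14:73552536-73552785 on the plus strand.
Ucp1: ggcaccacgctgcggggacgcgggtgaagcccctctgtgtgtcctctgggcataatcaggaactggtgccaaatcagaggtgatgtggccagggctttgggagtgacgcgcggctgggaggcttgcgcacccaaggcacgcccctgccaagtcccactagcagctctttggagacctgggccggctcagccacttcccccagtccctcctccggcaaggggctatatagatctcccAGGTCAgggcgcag
Slc27a2: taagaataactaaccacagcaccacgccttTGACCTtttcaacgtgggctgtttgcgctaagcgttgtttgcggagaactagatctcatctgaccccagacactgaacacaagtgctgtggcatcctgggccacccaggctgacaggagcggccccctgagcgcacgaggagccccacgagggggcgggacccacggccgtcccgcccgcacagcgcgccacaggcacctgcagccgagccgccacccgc
Acadvl: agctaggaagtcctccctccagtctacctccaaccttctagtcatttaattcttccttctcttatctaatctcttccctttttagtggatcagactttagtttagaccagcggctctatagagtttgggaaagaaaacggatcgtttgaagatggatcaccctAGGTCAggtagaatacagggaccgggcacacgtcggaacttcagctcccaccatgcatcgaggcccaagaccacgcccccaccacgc
Sucla2: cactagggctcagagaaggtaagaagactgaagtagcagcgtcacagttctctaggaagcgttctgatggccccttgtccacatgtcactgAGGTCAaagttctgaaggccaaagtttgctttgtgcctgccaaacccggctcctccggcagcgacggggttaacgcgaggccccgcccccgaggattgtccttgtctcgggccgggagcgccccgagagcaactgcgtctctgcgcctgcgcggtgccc
The first base of the match lies 14 bases before the start in Ucp1, 220 in Slc27a2, 87 in Acadvl and 159 in Sucla2. Of the 38 genes that rose, 30 had a window in the table, and 6 of the 30 held AGGTCA on either strand (20.0%), those of Myo5c and Nampt besides the 4 shown. Of the 24 that fell, 16 had a window and 1 held it (6.25%). The share was 13.2% over 10085 tested genes with a window and 14.0% over all 32851 windows, so these counts are a description. The Ebf motif TCCCNNGGGA was in none of the 30 and none of the 16 windows (1.21% of tested genes), and the estrogen-related receptor motif TNAAGGTCA, which contains AGGTCA, was in none either (0.793%). The cyclic AMP element TGACGTCA was in 1 of the 30, that of Ahcyl1, and in none of the 16 (2.78%).

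Among regulators of mitochondrial growth 1 gene rose. Ppara, the fatty acid receptor that drives oxidation genes, read 8.29, 8.37 and 8.16 in controls and 9.78, 11.20 and 10.62 in knockouts and rose by 2.26 ± 0.31 (adjusted p = 0.0469). Each cold array was listed at 9.30, and identical values in a group lower the shared standard error. Ppara was the only one of 13 tested factors on this list to pass, 12 did not, and the knockout arrays were above the controls on 9, with a median difference of 0.56. Ppargc1a (PGC-1 alpha), the coactivator that the cold and adrenergic signals induce, read 8.87, 8.69 and 8.55 against 9.77, 13.80 and 12.40 (3.29 ± 0.89, adjusted p = 0.143). Its relative Ppargc1b read 7.48, 7.50 and 7.57 against 8.58, 10.22 and 9.38 (1.87 ± 0.36, adjusted p = 0.0777). Esrrg, an estrogen-related receptor that partners with these coactivators, read 6.01, 6.16 and 6.39 against 7.03, 8.81 and 7.78 (1.69 ± 0.39, adjusted p = 0.104). On all of them knockout replicate 2 was highest, replicate 3 next and replicate 1 lowest, and each knockout was above each control. Gabpa, a nuclear respiratory factor, read 9.39, 9.30 and 9.19 against 9.70, 10.54 and 9.99 (0.79 ± 0.21, adjusted p = 0.136).

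Fatty acid oxidation in mitochondria held 5 of the genes that rose. Of 23 tested members 5 rose, 0 fell and 18 did not pass, the knockout arrays lay above the controls on 17, and the median difference was 0.99. Besides Cpt1b, these were a dehydrogenase, thiolases and an isomerase of the spiral. Acadvl, the first dehydrogenase for very long chains, read 12.41, 12.82 and 12.62 in controls and 14.22, 15.30 and 14.70 in knockouts (2.12 ± 0.26, adjusted p = 0.0369). Hadhb, the thiolase subunit of the trifunctional protein, read 15.04, 15.16 and 15.01 against 16.11, 16.73 and 16.36 (1.33 ± 0.14, adjusted p = 0.0277). Acaa2, the last thiolase, read 13.92, 13.75 and 13.80 against 15.25, 15.88 and 15.61 (1.76 ± 0.16, adjusted p = 0.0185). Control arrays differed little on these genes and the groups were well apart. Eci1, the isomerase for unsaturated chains, read 11.44, 11.18 and 11.25 against 11.97, 12.28 and 12.11 (0.83 ± 0.12, adjusted p = 0.0469). Slc25a20, which carries acylcarnitines across the inner membrane, read 12.60, 12.05 and 12.19 against 13.76, 15.65 and 14.84, all knockouts higher but short of the threshold (2.47 ± 0.43, adjusted p = 0.0639). Etfdh, which passes electrons from the spiral to coenzyme Q, read 11.28, 11.06 and 11.28 against 12.48, 13.70 and 13.19 (1.92 ± 0.28, adjusted p = 0.0505).

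Citric acid cycle and pyruvate dehydrogenase genes gave the same count: of 25 tested, 5 rose, 0 fell and 20 did not pass, with 16 above and 1 below the controls on all knockout arrays and a median difference of 0.95. Pdk4 is 1 of the 5. Sucla2, a subunit of succinyl-CoA synthetase, read 12.10, 12.18 and 12.12 in controls and 13.77, 14.72 and 14.22 in knockouts (2.11 ± 0.23, adjusted p = 0.0290). Idh3b and Idh3g are subunits of the isocitrate dehydrogenase of the cycle. Idh3b read 15.14, 14.93 and 14.95 against 15.60, 16.08 and 15.85 (0.84 ± 0.12, adjusted p = 0.0469), and Idh3g read 14.52, 14.42 and 14.55 against 15.04, 15.21 and 15.08 (0.61 ± 0.06, adjusted p = 0.0185). Their groups did not overlap and the differences were below 1 log2 unit. Pdp2, the phosphatase that reactivates pyruvate dehydrogenase and so opposes Pdk4, read 6.86, 6.79 and 6.96 against 7.54, 7.84 and 7.56 (0.77 ± 0.09, adjusted p = 0.0351). The partner subunit Idh3a differed by 1.93 ± 0.34 without passing (adjusted p = 0.0639), with knockouts at 15.18, 16.72 and 16.11 against 14.01, 14.14 and 14.08.

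Subunits of the respiratory chain lay higher in knockouts on most members, and 3 of them, all of complex IV, passed. For complex I the knockout arrays were above the controls on 30 of 33 tested subunits, although 0 passed in limma (30 at an unadjusted p under 0.05), with a median difference of 0.75. For complexes II and III this held on 14 of 14, again with 0 calls (14 at an unadjusted p under 0.05) and a median of 1.17. For complex IV it held on 12 of 15, of which 3 rose, with a median of 0.69. Besides Cox7a1 and Cox8b the third was Cox7a2l, a factor of respiratory supercomplexes, at 11.26, 11.57 and 11.45 in controls and 12.10, 12.22 and 12.02 in knockouts (0.69 ± 0.10, adjusted p = 0.0469). For the ATP synthase it held on 11 of 15 with 0 calls (12 at an unadjusted p under 0.05), 1 subunit was below the controls on all knockout arrays, and the median was 0.52. The largest values without a call were those of Cycs, the electron carrier cytochrome c, at 14.32, 14.41 and 14.36 against 15.20, 17.08 and 16.44 (1.87 ± 0.42, adjusted p = 0.0965), and of Sdhd, a subunit of complex II, at 12.36, 12.16 and 12.03 against 13.25, 14.71 and 14.08 (1.83 ± 0.34, adjusted p = 0.0728). Replicate 2 was again the highest knockout on both.

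**Figure D2:**
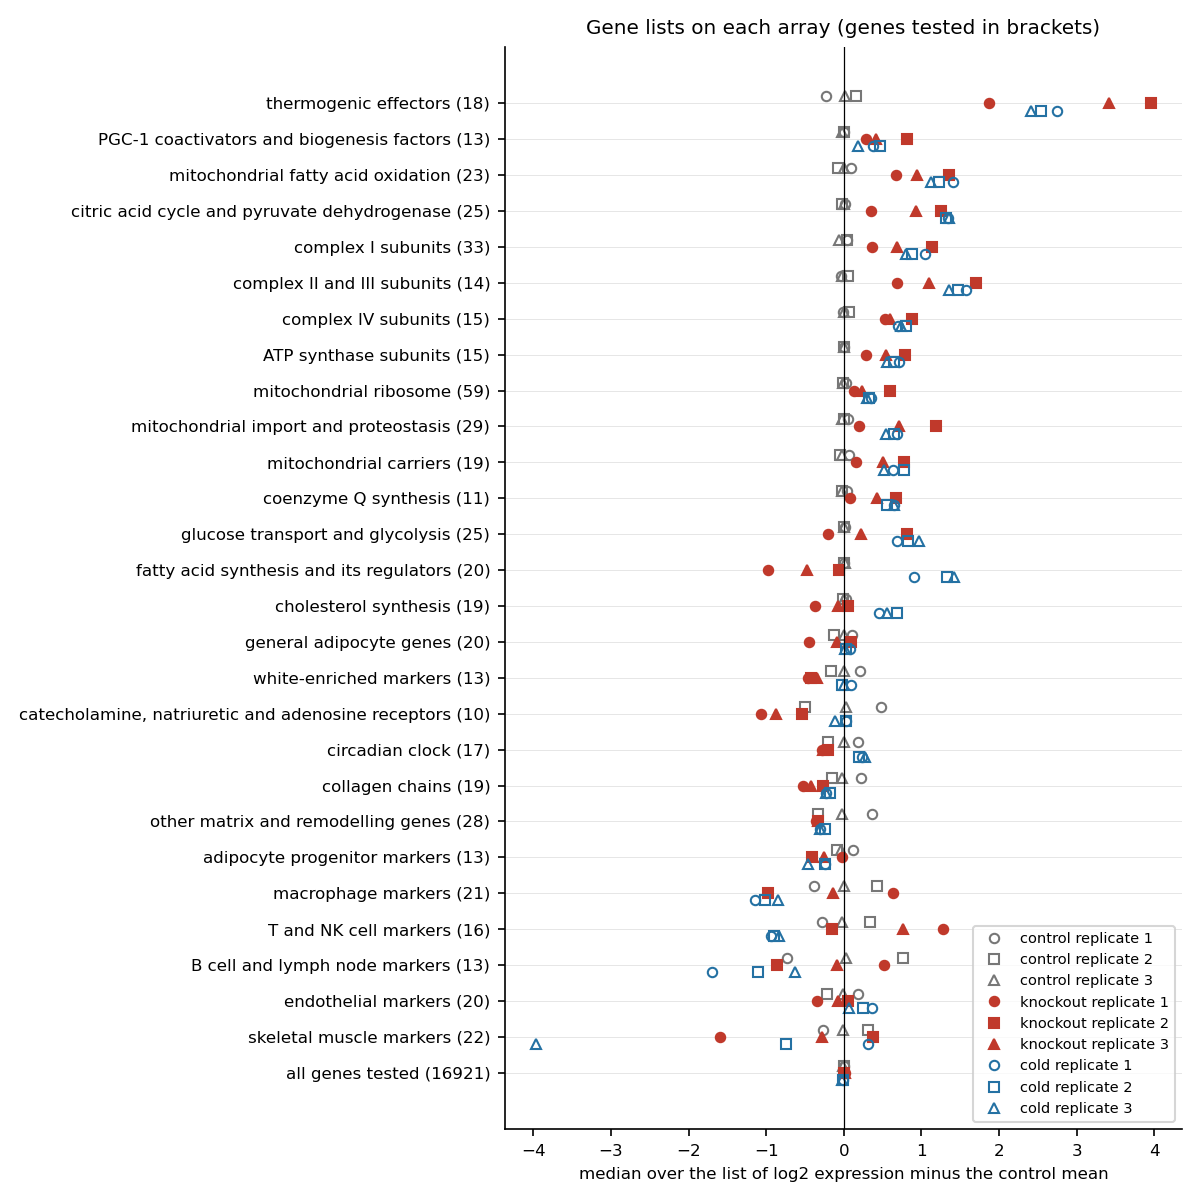
Median over each gene list of log2 expression minus the control mean (horizontal axis) for each array; filled red symbols are knockouts, open grey symbols controls and open blue symbols cold controls, with circles, squares and triangles for replicates 1, 2 and 3 and the number of tested genes in brackets. The thermogenic list lies at 1.87, 3.96 and 3.42 on the knockout arrays. The fatty acid synthesis list lies at -0.97, -0.06 and -0.47 on the knockouts and above 0 on the cold arrays.

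Other lists of mitochondrial genes held none that rose. Of 59 mitochondrial ribosomal proteins 0 passed in limma (33 at an unadjusted p under 0.05), the knockouts were above the controls on 35, and the median difference was 0.34. Of 29 import and proteostasis genes 0 passed (23 unadjusted), 22 were above and the median was 0.71. By array these import genes had medians of 0.20, 1.19 and 0.72 relative to the control mean, highest on replicate 2 and lowest on replicate 1. Coenzyme Q synthesis had 0 calls among 11 (6 unadjusted) and a median of 0.48. Among 19 tested carriers of the inner membrane 0 rose and 1 fell. This was Slc25a10, the dicarboxylate carrier that exports malate and supplies lipid synthesis, at 10.86, 11.23 and 10.99 in controls and 9.57, 9.91 and 9.80 in knockouts (-1.26 ± 0.16, adjusted p = 0.0442). Slc25a10 was 1 of 2 carriers below the controls on all knockout arrays, while 9 were above on all of them. Ucp3, a relative of Ucp1 in muscle and brown fat, read 9.46, 8.95 and 9.29 against 10.14, 11.80 and 10.96 (1.73 ± 0.40, adjusted p = 0.0989).

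Peroxisomal genes had 0 calls among 22 tested (6 unadjusted), with 4 above and 3 below the controls on all knockout arrays and a median of 0.20. Over all tested genes 16.2% were at an unadjusted p under 0.05 in limma, 9.32% were above and 8.01% below. Ehhadh, the bifunctional enzyme of peroxisomal oxidation, read 11.39, 11.08 and 11.18 in controls and 12.56, 14.12 and 13.36 in knockouts (2.13 ± 0.35, adjusted p = 0.0583). Abcd3, which brings fatty acids into peroxisomes, read 12.20, 12.19 and 12.24 against 13.09, 14.65 and 13.92 (1.68 ± 0.34, adjusted p = 0.0824), while the related transporter Abcd2 read 17.04, 16.31 and 16.67 against 15.58, 15.66 and 15.68 (-1.04 ± 0.19, adjusted p = 0.0699). So the transporters lay on opposite sides of the controls, neither past the threshold. Branched-chain amino acid catabolism had 0 calls among 18 (5 unadjusted) and a median of 0.12. Among 5 ketone body genes 0 passed (2 unadjusted), with Slc16a1, a monocarboxylate transporter, at 10.02, 9.75 and 9.74 against 9.98, 13.30 and 11.93, where knockout replicate 1 lay in the control range (1.90 ± 0.73, adjusted p = 0.261). Creatine and calcium cycling genes had 0 calls among 8 (4 unadjusted) and a median of -0.08.

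**Figure D3:**
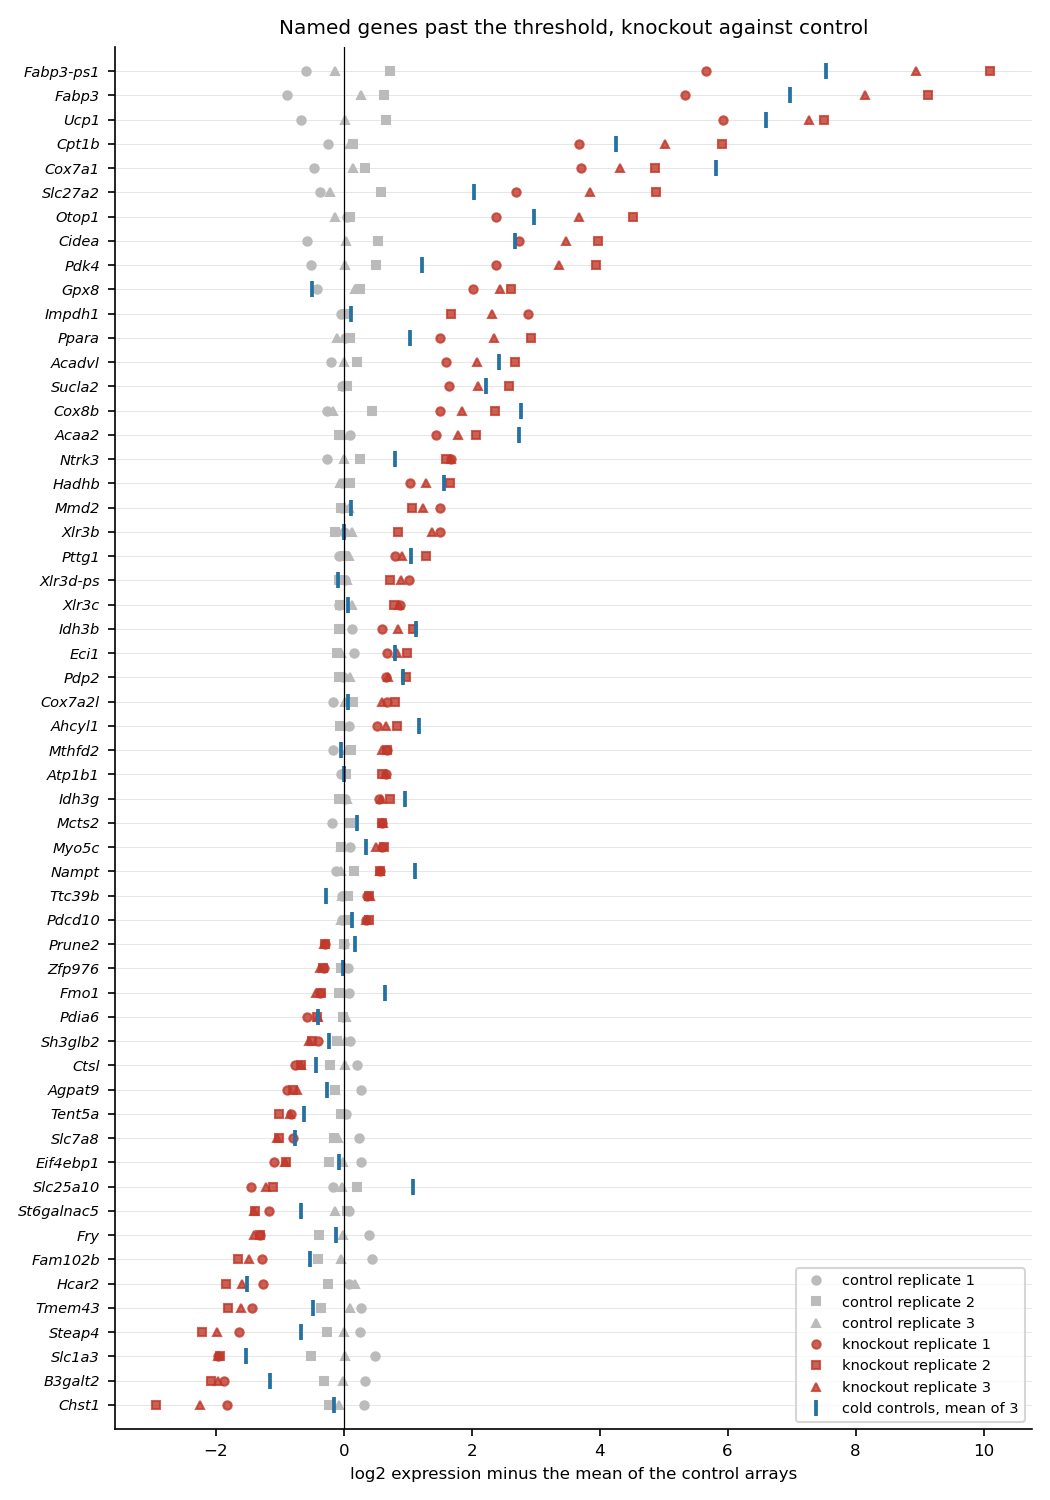
Log2 expression minus the mean of the controls (horizontal axis) for the 56 named genes past the threshold (vertical axis, ordered by the difference); grey symbols are controls, red symbols knockouts (circle, square and triangle for replicates 1, 2 and 3) and blue bars the mean of the cold controls. Fabp3, Ucp1, Cpt1b and Cox7a1 lie more than 3 log2 units above the controls on each knockout array, and Chst1 lies lowest.

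Outside oxidation, genes of several kinds rose. Gpx8, a glutathione peroxidase of the endoplasmic reticulum, read 12.72, 13.39 and 13.32 in controls and 15.16, 15.75 and 15.59 in knockouts (2.36 ± 0.29, adjusted p = 0.0369). Impdh1, which makes the precursor of guanine nucleotides, read 7.71, 7.79 and 7.75 against 10.64, 9.42 and 10.06 (2.29 ± 0.28, adjusted p = 0.0369). On Impdh1 the order of the knockouts was turned round, with replicate 1 highest and replicate 2 lowest. Ntrk3, the neurotrophin-3 receptor TrkC, read 8.04, 8.56 and 8.30 against 9.97, 9.90 and 9.97 (1.65 ± 0.12, adjusted p = 0.00864). Mmd2, a membrane protein of the progestin and adipoQ receptor family, read 5.39, 5.37 and 5.49 against 6.92, 6.49 and 6.65 (1.27 ± 0.12, adjusted p = 0.0185). Pttg1, securin, read 6.79, 6.87 and 6.96 against 7.67, 8.17 and 7.79 (1.00 ± 0.12, adjusted p = 0.0369). Each of these groups of knockouts lay wholly above the controls. The X-linked, testis and lymphoid genes Xlr3b and Xlr3c and the pseudogene Xlr3d-ps rose by 1.24 ± 0.17 (adjusted p = 0.0469), 0.84 ± 0.10 (adjusted p = 0.0321) and 0.88 ± 0.08 (adjusted p = 0.0185), and as near-identical copies they are uncertain as separate results. Xlr3d-ps averaged 5.304 in controls and 5.205 in cold controls, below the table median of 5.31. It passed the brightness filter only through its knockout values, so its call is not independent of the filter.

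Smaller rises had tightly grouped arrays. Nampt, the rate-limiting enzyme of NAD salvage, read 12.19, 12.47 and 12.26 in controls and 12.88 on all 3 knockout arrays (0.57 ± 0.08, adjusted p = 0.0469). It was the only call among the 12 tested genes of NAD metabolism. An identical deposited value on all arrays of a group lowers the standard error, and its cause was not tested. Of the 62 genes, 2 had such values on all knockout or all control arrays. These were Nampt in knockouts and Prune2 in controls (5.78). With the cold arrays, which share the estimate of the spread, there were 4. The others were Ppara, at 9.30 on each cold array, and Pdcd10, at 8.61 on each. Atp1b1, the beta subunit of the sodium pump, read 7.73, 7.81 and 7.80 against 8.43, 8.38 and 8.44 (0.64 ± 0.06, adjusted p = 0.0185). Mthfd2, a mitochondrial folate enzyme, read 6.46, 6.75 and 6.69 against 7.31, 7.30 and 7.23 (0.65 ± 0.09, adjusted p = 0.0469). The knockout arrays of these genes differed by less than 0.1 log2 unit. Ahcyl1, a regulator of inositol trisphosphate receptors, rose by 0.67 ± 0.08 (adjusted p = 0.0365) and Myo5c, an unconventional myosin, by 0.58 ± 0.06 (adjusted p = 0.0239). Pdcd10, a protein of the cerebral cavernous malformation complex, rose by 0.36 ± 0.04 (adjusted p = 0.0321) and Ttc39b by 0.39 ± 0.04 (adjusted p = 0.0277). Mcts2, a retrotransposed copy of Mcts1 that the array may not part from it, rose by 0.60 ± 0.08 (adjusted p = 0.0469).

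Among the genes that fell, 3 were enzymes that build glycans, a list drawn up with these calls known. Of 17 tested glycan-modifying enzymes 3 fell, 0 rose and 14 did not pass, and the median difference was -0.28. Chst1, which adds sulfate to keratan sulfate, read 10.83, 10.28 and 10.44 in controls and 8.69, 7.58 and 8.26 in knockouts (-2.34 ± 0.28, adjusted p = 0.0365). B3galt2, a galactosyltransferase, read 12.08, 11.44 and 11.74 against 9.88, 9.67 and 9.78 (-1.98 ± 0.20, adjusted p = 0.0252). St6galnac5, a sialyltransferase of gangliosides, read 7.24, 7.22 and 7.02 against 5.99, 5.77 and 5.76 (-1.32 ± 0.09, adjusted p = 0.00864). The groups were separate on all 3, and St6galnac5 passed under 14 of 19 other settings. On 2 more members all knockouts were below the controls, B4galt6 at -0.64 ± 0.26 and St3gal6 at -0.45 ± 0.12, neither past the threshold (adjusted p = 0.283 and 0.136 in limma).

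Of the amino acid transporters 2 fell, while the median difference of the list was 0.13. Slc1a3, a glutamate and aspartate transporter, read 12.18, 11.19 and 11.72 in controls and 9.73, 9.76 and 9.72 in knockouts (-1.96 ± 0.24, adjusted p = 0.0369). Slc7a8, a carrier of large neutral amino acids, read 8.90, 8.52 and 8.58 against 7.87, 7.65 and 7.62 (-0.95 ± 0.13, adjusted p = 0.0469). They were 2 of 17 tested amino acid transporters, of which 0 rose and 15 did not pass. The knockout arrays of Slc1a3 were within 0.04 of each other while its controls spanned about 1 log2 unit. Slc43a1, another neutral amino acid carrier, read 9.08, 8.22 and 8.61 against 7.47, 6.97 and 7.22 (-1.42 ± 0.22, adjusted p = 0.0520), and Slc36a2, a proton-coupled carrier enriched in brown fat, read 14.22, 14.25 and 14.25 against 14.89, 16.01 and 15.55 (1.24 ± 0.24, adjusted p = 0.0807). So carriers lay on both sides of the controls. Steap4, an iron and copper reductase of adipocytes, read 16.08, 15.56 and 15.84 against 14.19, 13.61 and 13.85 (-1.95 ± 0.21, adjusted p = 0.0277), the 1 call among 16 iron genes.

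Among receptors that restrain lipolysis 1 fell. Hcar2, the receptor for niacin and the ketone body beta-hydroxybutyrate, read 10.84, 10.49 and 10.91 in controls and 9.48, 8.91 and 9.16 in knockouts and fell (-1.56 ± 0.16, adjusted p = 0.0252). Hcar1, the lactate receptor, read 11.60, 10.51 and 11.13 against 9.25, 8.95 and 9.19, with all knockouts more than 1 log2 unit below the lowest control, just short of the threshold (-1.95 ± 0.28, adjusted p = 0.0505). Npr3, the clearance receptor that removes natriuretic peptides, read 15.87, 13.30 and 14.89 against 10.13, 13.78 and 12.61, and the groups overlapped through knockout replicate 2 (-2.51 ± 0.99, adjusted p = 0.274). Tshr, the thyrotropin receptor, read 13.27, 11.28 and 12.26 against 9.46, 11.02 and 10.25 (-2.03 ± 0.55, adjusted p = 0.141). These genes are on a list of catecholamine, natriuretic and adenosine receptors, which is not a list of receptors that restrain lipolysis. It also holds Npr1, Tshr and Mc2r, and none of its adrenergic or adenosine receptors was tested. Over its 10 tested receptors 1 fell, 0 rose, 4 were below the controls on all knockout arrays and the median was -0.84. Adrenergic receptors had no testable row of their own name. Among 16 tested lipolysis genes Hcar2 was the 1 that fell, 4 of the 16 differences were positive and the median was -0.25. On 3 members all knockouts were below the controls. The 2 members above the controls on all knockouts were subunits of protein kinase A. Of these Prkaca, a catalytic subunit of protein kinase A, read 12.87, 12.48 and 12.71 against 13.21, 14.33 and 13.84 (1.11 ± 0.26, adjusted p = 0.107).

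The other genes that fell served varied functions. Fmo1, a flavin monooxygenase, read 13.95, 13.79 and 13.88 in controls and 13.50, 13.51 and 13.44 in knockouts (-0.39 ± 0.05, adjusted p = 0.0469). Eif4ebp1, a brake on cap-dependent translation, read 13.00, 12.50 and 12.72 against 11.65, 11.83 and 11.82 (-0.98 ± 0.13, adjusted p = 0.0469). Tent5a, a poly(A) polymerase, read 9.30, 9.22 and 9.28 against 8.45, 8.25 and 8.43 (-0.89 ± 0.07, adjusted p = 0.0126). On each the knockouts were close together below the controls. Agpat9, the former symbol of a glycerol-3-phosphate acyltransferase that starts triglyceride synthesis, read 7.29, 6.88 and 6.89 against 6.13, 6.23 and 6.29 (-0.80 ± 0.11, adjusted p = 0.0469), the 1 call among 17 triglyceride genes. Another row of this gene, listed under its current symbol Gpat3 and so also counted among the 17, read 9.65, 9.51 and 9.52 against 8.47, 10.12 and 9.51 (-0.20 ± 0.37, adjusted p = 0.831), and its groups overlapped. Pdia6, a disulfide isomerase of the endoplasmic reticulum, read 11.82, 11.84 and 11.87 against 11.26, 11.43 and 11.44 (-0.47 ± 0.06, adjusted p = 0.0376). Ctsl, the lysosomal protease cathepsin L, read 14.22, 13.80 and 14.03 against 13.25, 13.35 and 13.34 (-0.70 ± 0.10, adjusted p = 0.0469). The remaining named genes that fell were Tmem43, a nuclear envelope protein (-1.62 ± 0.19, adjusted p = 0.0351), Fam102b (-1.47 ± 0.20, adjusted p = 0.0469), Fry (-1.34 ± 0.17, adjusted p = 0.0401), Sh3glb2 (-0.49 ± 0.07, adjusted p = 0.0469), Zfp976 (-0.34 ± 0.05, adjusted p = 0.0469) and Prune2 (-0.30 ± 0.04, adjusted p = 0.0365). In all, 36 named genes rose and 20 fell, and the other 6 calls had predicted or unnamed symbols.

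Genes of fatty acid synthesis lay mostly lower, and here the knockouts and the cold controls parted. Of 20 tested members 0 passed between knockouts and controls in limma (11 at an unadjusted p under 0.05), 9 were below the controls on all knockout arrays and 2 above, and the median difference was -0.54. By array the knockout medians were -0.97, -0.06 and -0.47 relative to the control mean, so replicate 2 lay close to it. In cold controls the median against the same room temperature controls was 1.26, and 8 members were higher in cold controls than in knockouts by the test (1.25% of all tested genes were). Acly, which makes cytosolic acetyl-CoA from citrate, read 13.06, 14.01 and 13.68 in controls, 11.77, 13.08 and 12.41 in knockouts and 15.74, 16.55 and 17.20 in cold controls. The cold minus knockout difference was 4.08 ± 0.47 (adjusted p = 0.0127). Acaca, the carboxylase of the committed step, read 16.01, 16.08 and 16.07 in controls, 14.05, 15.19 and 14.67 in knockouts and 16.51, 17.39 and 18.00 in the cold, with a cold minus knockout difference of 2.66 ± 0.41 (adjusted p = 0.0271). All knockouts were below all controls on Acaca, whose room temperature difference of -1.42 ± 0.41 did not pass (adjusted p = 0.160). Acss2, which activates acetate, read 9.47, 9.55 and 9.53 in controls, 7.81, 8.56 and 8.22 in knockouts and 10.68, 11.35 and 11.84 in the cold, and cold controls were higher than knockouts by 3.10 ± 0.30 (adjusted p = 0.00916). Insig1, a sensor of sterols that is itself a target of the lipogenic factor SREBP, read 11.70, 12.76 and 12.34 in controls, 10.75, 11.39 and 11.01 in knockouts and 13.79, 13.67 and 13.71 in the cold (cold minus knockout 2.67 ± 0.27, adjusted p = 0.00966). Aacs, which feeds ketone bodies into lipid synthesis, read 11.56 on each control, 10.21, 10.88 and 10.36 in knockouts and 12.96, 13.09 and 12.91 in cold controls (cold minus knockout 2.50 ± 0.16, adjusted p = 0.00223). On all 5 genes every cold array was above every other array, and the knockouts lay below the controls without overlap except on Acly. The other members higher in cold controls than in knockouts were Fasn, fatty acid synthase (1.71 ± 0.24, adjusted p = 0.0226), Me1, malic enzyme (2.34 ± 0.42, adjusted p = 0.0419), and the citrate carrier Slc25a1 (1.76 ± 0.24, adjusted p = 0.0197). Cholesterol synthesis had 0 calls among 19 between knockouts and controls (4 unadjusted), with a median of -0.13, and 8 members were higher in cold controls than in knockouts. Among them were Fdps, which makes farnesyl diphosphate (1.53 ± 0.22, adjusted p = 0.0249), and Nsdhl, a sterol dehydrogenase (1.97 ± 0.37, adjusted p = 0.0434).

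**Figure D4:**
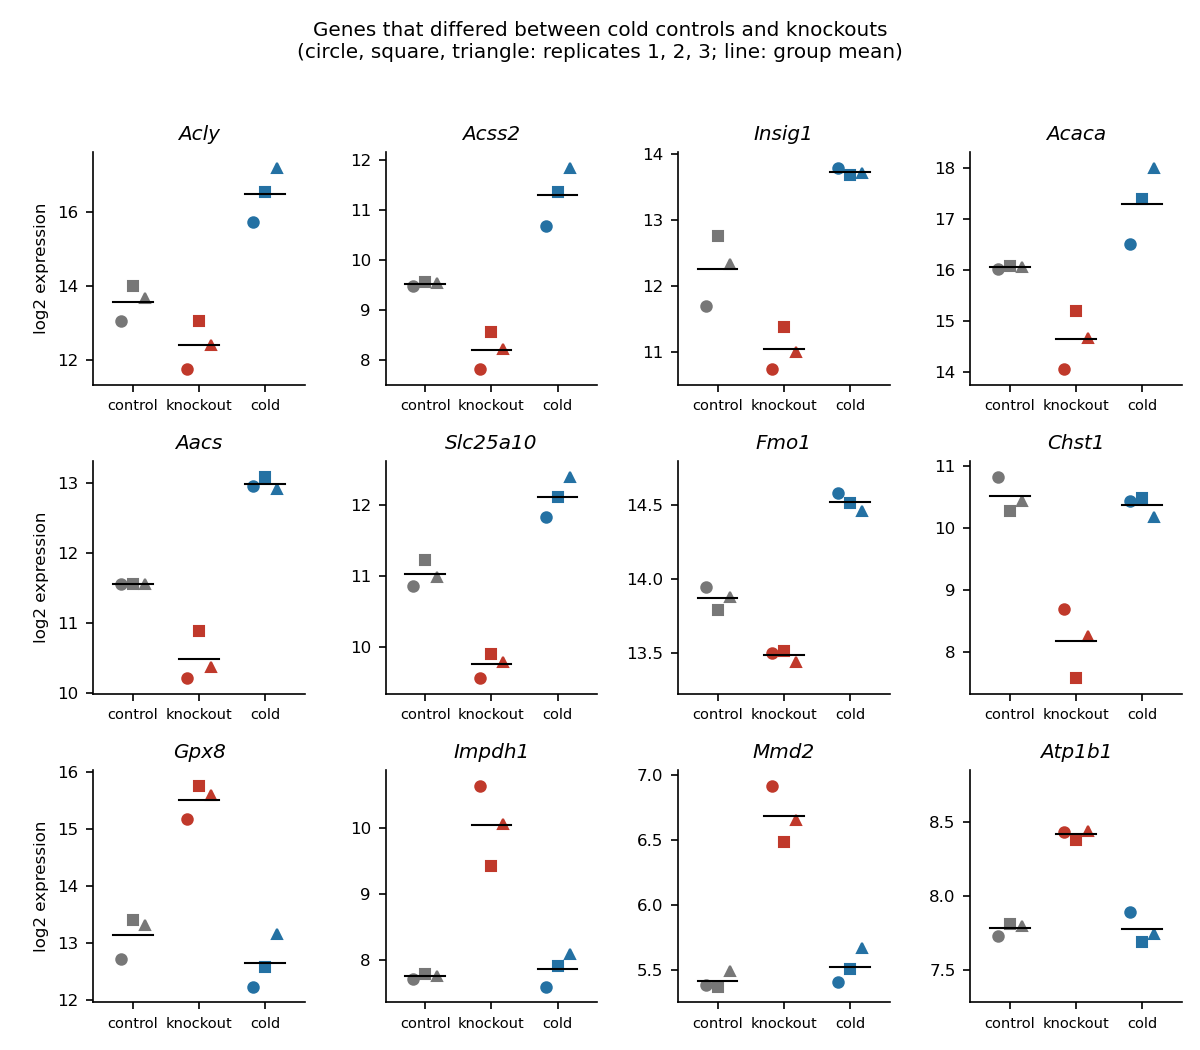
Log2 expression (vertical axis, scaled for each gene) on each array of the control, knockout and cold groups (horizontal axis) for genes that passed the test between cold controls and knockouts; circles, squares and triangles are replicates 1, 2 and 3 and lines are group means. Acly lies between 11.77 and 13.08 in knockouts and between 15.74 and 17.20 in cold controls, while Gpx8 lies between 15.16 and 15.75 in knockouts and between 12.23 and 13.39 in the other groups.

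Knockouts and cold controls were compared directly because both were measured against the same room temperature controls. Between them 407 genes passed (2.41%), of which 212 were higher in cold controls (1.25%) and 195 lower (1.15%). After quantile normalization the split was 357 and 212, and after centring each array on its median it was 312 and 209. Against the room temperature controls, 223 genes were higher in cold controls (1.32%) and 32 lower (0.189%), among them 23 of the 38 that rose in knockouts and 7 of the 24 that fell, over shared control arrays. Of the 38 genes that rose in knockouts, 12 were lower in cold controls than in knockouts, 4 were higher and 22 did not pass between the groups. Of the 24 that fell, 12 were higher in cold controls and 12 did not pass. Ucp1 read 19.18, 19.00 and 18.86 in cold controls, close to the knockouts, with a cold minus knockout difference of -0.30 ± 0.47 (adjusted p = 0.714). Cidea read 16.74, 16.61 and 16.51 (-0.72 ± 0.36, adjusted p = 0.245) and Dio2 8.38, 7.89 and 7.57 (-2.84 ± 1.24, adjusted p = 0.194). None of these 3 passed, which does not show that the levels were alike.

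Genes that were higher in knockouts than in the cold included many of those outside oxidation. Gpx8 read 12.23, 12.57 and 13.14 in cold controls (-2.86 ± 0.29, adjusted p = 0.00966), against 12.72, 13.39 and 13.32 in the room temperature controls. Impdh1 read 7.59, 7.91 and 8.09 (-2.18 ± 0.28, adjusted p = 0.0184) and Mmd2 5.41, 5.51 and 5.67 (-1.16 ± 0.12, adjusted p = 0.00959). Atp1b1 read 7.89, 7.69 and 7.74 (-0.64 ± 0.06, adjusted p = 0.00690) and Mthfd2 6.46, 6.60 and 6.70 (-0.69 ± 0.09, adjusted p = 0.0184). Every knockout array was above every cold array on these genes. Cox7a2l (-0.62 ± 0.10, adjusted p = 0.0272), Ttc39b (-0.66 ± 0.04, adjusted p = 0.00223), Pdcd10 (-0.23 ± 0.04, adjusted p = 0.0405), Ntrk3 (-0.85 ± 0.12, adjusted p = 0.0205) and the Xlr3 copies Xlr3b (-1.24 ± 0.17, adjusted p = 0.0197), Xlr3c (-0.78 ± 0.10, adjusted p = 0.0168) and Xlr3d-ps (-0.97 ± 0.08, adjusted p = 0.00430) were also lower in the cold than in knockouts. Xlr3d-ps passed the brightness filter only through its knockout values. The 10 largest differences of named genes in this direction further held the T cell genes Il7r, the interleukin 7 receptor (-1.89 ± 0.27, adjusted p = 0.0237), Cd96 (-1.20 ± 0.23, adjusted p = 0.0477) and Dapl1 (-1.39 ± 0.25, adjusted p = 0.0425), and the ribosomal protein pseudogenes Rpl9-ps6, Rps13-ps1 and Rps19-ps4, which share sequence with their parent genes.

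In the other direction, Slc25a10 read 11.83, 12.10 and 12.39 in cold controls, above all arrays of both room temperature groups (2.35 ± 0.16, adjusted p = 0.00302). Fmo1 read 14.58, 14.52 and 14.47 (1.04 ± 0.05, adjusted p = 0.00104), also above both groups. Chst1 read 10.44, 10.49 and 10.18, above all knockouts (2.19 ± 0.28, adjusted p = 0.0178), with a cold minus control difference of -0.15 ± 0.28 that did not pass (adjusted p = 0.797). Thus on these 3 genes the cold and knockout arrays did not overlap. St6galnac5 (0.66 ± 0.09, adjusted p = 0.0197), Zfp976 (0.32 ± 0.05, adjusted p = 0.0232), Eif4ebp1 (0.90 ± 0.13, adjusted p = 0.0249), Fry (1.22 ± 0.17, adjusted p = 0.0220), Tmem43 (1.13 ± 0.19, adjusted p = 0.0364), Steap4 (1.27 ± 0.21, adjusted p = 0.0347) and Prune2 (0.48 ± 0.04, adjusted p = 0.00372) likewise were higher in cold controls than in knockouts, as were 2 genes of predicted symbols. Among genes without a call at room temperature, the cold controls exceeded the knockouts on the glycogen genes Ppp1r3b (2.71 ± 0.37, adjusted p = 0.0197) and Pygl, liver-type glycogen phosphorylase (2.62 ± 0.26, adjusted p = 0.00945), the fructose transporter Slc2a5 (2.42 ± 0.26, adjusted p = 0.0115), the glutathione transferase Gsta3 (2.87 ± 0.42, adjusted p = 0.0249) and Serpina1c (2.59 ± 0.50, adjusted p = 0.0493). Acaa2 (0.97 ± 0.16, adjusted p = 0.0378), Ahcyl1 (0.50 ± 0.08, adjusted p = 0.0327), Nampt (0.55 ± 0.08, adjusted p = 0.0213) and Idh3g (0.34 ± 0.06, adjusted p = 0.0352) rose in knockouts and were higher still in the cold.

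Some genes with large differences did not pass although the arrays did not overlap. The 12 largest of these on the higher side were Dio2, Elovl3, Ppargc1a, Slc4a4, Pank1, Gys2, Slc25a20, Plin5, Kcnk3, St3gal5, Slc25a42 and Nr4a1. Slc4a4, a bicarbonate cotransporter, read 8.28, 8.11 and 8.19 in controls and 9.54, 12.51 and 11.25 in knockouts (2.90 ± 0.65, adjusted p = 0.0965). Pank1, which starts coenzyme A synthesis, read 7.45, 8.31 and 8.04 against 9.48, 11.59 and 10.57 (2.61 ± 0.49, adjusted p = 0.0761). Gys2, a glycogen synthase, read 10.70, 9.84 and 10.16 against 11.04, 14.14 and 12.98 (2.49 ± 0.70, adjusted p = 0.154). Nr4a1, an immediate early nuclear receptor, read 7.52, 7.21 and 7.18 in controls, 8.10, 11.00 and 9.53 in knockouts and 7.24, 7.24 and 7.06 in cold controls (2.24 ± 0.63, adjusted p = 0.154 for knockouts minus controls). In all 4, knockout replicate 2 exceeded replicate 1 by over 2 log2 units. The 12 largest on the lower side were Vnn1, Ccdc80, Tshr, Hcar1, Eepd1, Fads3, Rbp4, Zyg11a, C7, Pkp2, Prelp and Bmp3. Ccdc80, a secreted protein of white adipocytes, read 15.33, 13.93 and 14.83 against 12.35, 12.75 and 12.64 (-2.11 ± 0.43, adjusted p = 0.0824). Rbp4, the retinol carrier secreted by fat and liver, read 13.22, 12.36 and 12.70 against 10.61, 11.47 and 10.86 (-1.78 ± 0.30, adjusted p = 0.0607) and was higher in cold controls than in knockouts (2.11 ± 0.30, adjusted p = 0.0231). On both of these genes control replicate 1 was the highest control and control replicate 2 the lowest.

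Lists of white and general adipocyte genes had medians below 0 and no call. Of 13 tested white-enriched markers 0 passed in limma (4 at an unadjusted p under 0.05), 4 were below the controls on all knockout arrays and the median was -0.37. Lep, the satiety hormone of white fat, read 14.62, 12.84 and 13.95 in controls and 11.24, 13.90 and 12.89 in knockouts, and the groups overlapped (-1.13 ± 0.74, adjusted p = 0.495). Of 20 general adipocyte genes 0 passed (6 unadjusted), 2 were above and 4 below, and the median was -0.18. Plin4, a lipid droplet coat protein, read 17.92, 16.95 and 17.57 against 15.99, 16.32 and 16.16 (-1.32 ± 0.25, adjusted p = 0.0777). Igf1, an insulin-like growth factor made in fat, read 12.07, 11.48 and 11.71 against 10.44, 10.04 and 10.16, all knockouts lower by about 1 log2 unit or more (-1.54 ± 0.26, adjusted p = 0.0614). Among 17 insulin and IGF genes 0 passed (4 unadjusted), 6 were below and 1 above the controls on all knockouts. Clock genes had 0 calls among 17 (5 unadjusted), 7 below on all knockouts and a median of -0.26. Nr1d1, the clock repressor Rev-erb alpha, read 12.80, 12.28 and 12.43 against 11.67, 11.86 and 11.66 (-0.77 ± 0.14, adjusted p = 0.0714), and Bhlhe40 read 10.04, 10.35 and 10.19 against 8.88, 9.17 and 9.22 (-1.11 ± 0.22, adjusted p = 0.0807). Both were higher in cold controls than in knockouts (Nr1d1 0.92 ± 0.14, adjusted p = 0.0272, Bhlhe40 1.73 ± 0.22, adjusted p = 0.0173). The hour at which tissue was taken is not in the labels.

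Collagen chains had a median below 0 and no call. Of 19 tested chains 0 passed in limma (9 at an unadjusted p under 0.05), 9 were below the controls on all knockout arrays and 0 above, and the median was -0.52. Col1a1, a chain of fibrillar collagen I, read 13.91, 12.92 and 13.38 in controls and 12.90, 11.17 and 12.25 in knockouts (-1.30 ± 0.44, adjusted p = 0.210), with knockout replicate 1 just under the lowest control. Col6a3, a chain of collagen VI around adipocytes, read 11.18, 10.97 and 10.98 against 10.32, 9.89 and 10.06 (-0.95 ± 0.15, adjusted p = 0.0574). Other matrix genes had 0 calls among 28 (7 unadjusted) and a median of -0.36, and their control arrays lay at 0.36, -0.33 and -0.03. BMP and activin genes had 0 calls among 25 (4 unadjusted), with Inhbb, a subunit of activin B, at 10.38, 9.77 and 9.82 against 9.29, 8.93 and 9.09 (-0.89 ± 0.17, adjusted p = 0.0799). Interferon response genes (25 tested, 0 unadjusted) and cell cycle genes (20 tested, 0 unadjusted) had 0 calls, and no member had all knockouts on 1 side of the controls.

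The knockout arrays differed from each other. Of the 38 genes that rose, 24 were ordered replicate 2 over 3 over 1, as were 5187 of all 16921 tested genes, and 5270 of all had the reverse order. The 12 widest ranges among knockouts in named genes were those of Bst2, Apol7c, Ccl8, S100a9, S100a8, Mfsd2a, Npr3, Ppargc1a, Elovl3, Dio2, Fabp3 and Fabp3-ps1. The neutrophil and monocyte genes S100a8 and S100a9 read 9.51, 4.83 and 8.83 and 9.73, 5.08 and 8.35 on the knockouts, high on replicates 1 and 3 and low on 2. Ccl8, a monocyte chemokine, read 11.76, 8.01 and 10.67, with the same order. Ppargc1a and Dio2 had the opposite order. So the knockout with the highest thermogenic values had the lowest values of these immune genes. The order 2 over 3 over 1 was not particular to thermogenic genes (17 of 18). It also held on 18 of 20 general adipocyte genes, 20 of 22 skeletal muscle markers and 16 of 20 endothelial markers. The reverse order held on 1, 0 and 2 of these. Its cause was not tested.

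**Figure D5:**
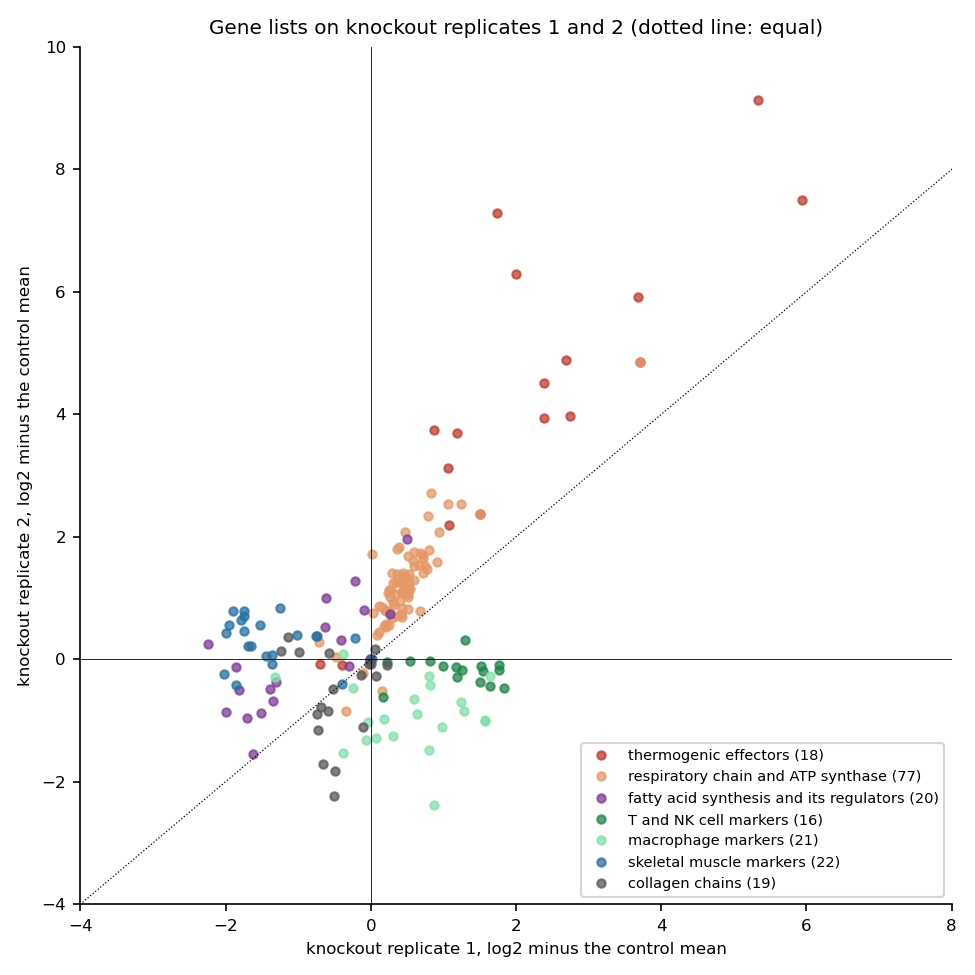
Log2 expression minus the control mean on knockout replicate 1 (horizontal axis) and knockout replicate 2 (vertical axis) for members of 7 groups of lists, 1 point a gene, with the number of genes in brackets; on the dotted line both replicates are equal. Thermogenic genes have medians of 1.87 on replicate 1 and 3.96 on replicate 2, and T and NK cell markers 1.27 and -0.15.

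Markers of other cells of the fat pad differed between replicates of a group, and no marker list held a gene past the threshold between knockouts and controls in limma. Of 16 tested T and NK cell markers 1 was above the controls on all knockouts (1 at an unadjusted p under 0.05), with array medians of -0.27, 0.33 and -0.03 in controls, 1.27, -0.15 and 0.76 in knockouts and -0.94, -0.90 and -0.83 in the cold. Their summed level on the log2 scale was 13.42 to 14.09 in controls, 13.57 to 15.31 in knockouts and 12.63 to 12.75 in cold controls. The B cell and lymph node markers (13 tested, 0 unadjusted) had medians of -0.73, 0.77 and 0.03 in controls and 0.52, -0.85 and -0.09 in knockouts, with summed levels of 14.78 to 16.06 and 14.22 to 16.26. Inguinal fat surrounds a lymph node. The B cell antigen Ms4a1 (CD20) read 10.75, 12.49 and 11.64 against 12.25, 10.38 and 11.50, above the table median of 5.31 on all arrays. Macrophage markers (21 tested, 1 unadjusted) had medians of -0.38, 0.43 and 0.01 in controls and 0.64, -0.97 and -0.14 in knockouts and summed levels of 18.69 to 19.01 and 18.76 to 19.00. Replicate 1 was the highest knockout and replicate 2 the lowest on all 3 lists. In whole tissue, fewer cells of a type and less RNA per cell cannot be told apart, and the part of these cells in the differences above was not tested.

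Skeletal muscle shares Fabp3, Cpt1b, Cox7a1, Cox8b and Pdk4 with thermogenic fat, so muscle markers are given beside them. Of 22 tested muscle markers 0 passed (0 unadjusted), 0 were above the controls on all knockouts and 1 was below. Their summed levels were 16.85 to 17.45 in controls, 15.41 to 17.57 in knockouts and 12.70 to 17.45 in cold controls. Acta1, skeletal muscle actin, read 14.55, 15.30 and 15.06 in controls, 12.95, 14.72 and 14.02 in knockouts and 14.90, 13.80 and 9.49 in cold controls. Among the room temperature arrays the summed muscle markers were lowest on knockout replicate 1 and highest on knockout replicate 2. They were lowest of all on cold replicate 3. The part of muscle in the differences of the shared genes was not tested. Endothelial (20 tested, 2 unadjusted), mural (14 tested, 1 unadjusted) and progenitor markers (13 tested, 3 unadjusted) had 0 calls and medians of -0.11, -0.12 and -0.27. Of 23 markers of mammary and other epithelium only Trf, transferrin, was bright enough to be tested, at 18.00, 17.52 and 17.76 against 16.18, 16.68 and 16.46 (-1.32 ± 0.20, adjusted p = 0.0520), and of 18 nerve and Schwann cell markers 6 were tested with 0 calls (2 unadjusted). The Y-linked gene Uty lay between 10.24 and 10.42 and the X-inactivation gene Xist at 4.65 on all 9 arrays.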

How the data were processed

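Per the labels, total RNA of inguinal fat was labelled with biotin and read on 9 arrays, 3 a group, of the type Mouse Transcriptome Array 1.0. The deposited values are log2 expression per row, made by the authors with Affymetrix Expression Console, per the submitters' processing notes. The sources used here do not give its version, the summarisation, the normalization or a genome build, so no scale beyond log2 is known, and no scanner intensities were used. Of 72688 rows, 65770 were transcript clusters, of which 31093 had 1 gene symbol in the platform annotation, 1492 several and 33185 none. Symbols were updated through Entrez IDs in a RefSeq table of GRCm38.p6 (1481 changed). A gene was tested where its brightest row had a mean over the 9 arrays at or above the median of the table, 5.31, which left 16921 genes. Array medians over these lay between 7.856 and 7.95. Of the tested genes, 1454 had the same value on all 3 knockout or all 3 control arrays and 66 on all 9, and the cause was not tested. The number of arrays limits the precision.

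Group means were fitted over all 9 arrays with limma 3.58.1 in R 4.3.3 (lmFit and eBayes, 6 residual and 1.23 prior degrees of freedom, Benjamini-Hochberg adjustment over the genes tested, threshold 0.05). The 4 marker genes were also tested with an exact permutation test in scipy 1.17.1. On simulated data with known differences between knockouts and controls in 16921 genes, the fit recovered 36% of genes changed by 0.5 log2 units, 64% at 1, 94% at 2 and 100% at 3, with 9 of 156 calls on unchanged genes. The simulated arrays were independent with normal noise, unlike the deposited groups with their in-between arrays. These shares therefore do not give the error rate of the calls reported here. Genes were named by a written rule: the 4 marker genes, all named genes past the threshold, up to 4 passing and 4 other members of each list and those needed to describe its roles, the 12 largest differences in each direction among genes whose arrays did not overlap but that did not pass, the 12 widest ranges among knockouts, and the 10 largest differences in each direction between cold controls and knockouts. Predicted genes were counted but not named. The members, the 57 lists (1124 symbols, of which 934 were tested, 100 were below the median, 63 had no row of that name and 27 only rows of several symbols) and the rule were chosen with earlier results of these data known, and 1 symbol was dropped from a list afterwards because it is a synonym of an unrelated gene. Settings were varied in 18 ways (filter, row choice, normalization, centring, arrays in the fit, variance model, array weights, replicate block and each array left out) and in 1 way added after the data were seen, the fit without the in-between arrays. Promoter windows came from a RefSeq table and were matched by symbol.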

Additional observations from a re-analysis of the deposited data

How the results depend on the processing

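The number of genes past the threshold between knockouts and controls, 62 in the fit described, depended on which arrays entered. It was 14 with no filter on dim genes, 140 with the filter at the 65th percentile, 37 with a variance trend and robust shrinkage, and 0 with the 6 room temperature arrays alone (1955 at an unadjusted p under 0.05 in limma). Leaving out 1 array at a time gave 0 to 836 genes: for controls 1 without replicate 1, 369 without 2 and 1 without 3, for knockouts 836, 37 and 0 in the same order, and for cold controls 10, 0 and 8. Between cold controls and knockouts, where 407 genes passed, the number was 223 with no filter, and leaving out 1 array gave 14 to 2701, the lowest without knockout replicate 3 and the highest without knockout replicate 2. Of the other arrays, it was 644 and 73 without control replicates 1 and 3, 197 without knockout replicate 1, and 98, 30 and 155 for the cold replicates in order. Without the 3 in-between arrays, a fit added after seeing the data, both comparisons had 0 genes (692 and 987 unadjusted). The array weights of limma did not converge, and the 11839 and 9988 genes under them are not usable. With the replicate number as a block 1 gene passed between knockouts and controls and 36 between cold controls and knockouts. The labels do not say whether the numbers pair the samples. Deviations from the group means of same-numbered controls and knockouts correlated at -0.46, -0.46 and 0.02 across genes. Deviations within a group sum to 0 and replicate 3 lies in between, so these values are tied to each other and cannot decide on pairing.

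Of the 62 genes, 53 remained past the threshold after quantile normalization and 55 after centring. All 62 remained with the mean of all rows of a gene. That setting could change few genes, since 17107 rows stood for the 16921 genes. Ucp1 missed the threshold with the room temperature arrays alone (6.90, adjusted p = 0.146), under the replicate block (6.90, adjusted p = 0.0528) and without the in-between arrays (6.73, adjusted p = 0.949), and ranged from 6.57 to 7.39 when 1 array was left out, with losses in 4 of those 9 fits. Cidea missed it with no filter (3.40, adjusted p = 0.0565), with the room temperature arrays alone (3.40, adjusted p = 0.209), under the block (3.40, adjusted p = 0.0602) and without the in-between arrays (3.38, adjusted p = 0.949), and ranged from 3.11 to 3.73 when 1 array was left out, with losses of the call in 6 of those 9 fits. Dio2 passed without knockout replicate 1 (6.46, adjusted p = 0.00941) and under the array weights (5.51), with a leave-one-out range of 3.69 to 6.46. Zfp423 passed under the array weights alone (-0.36), with a leave-one-out range of -0.65 to -0.36. Over 303 named genes and the 18 alternatives other than the array weights, 4600 of 5433 values kept their direction and side of the threshold, 664 lost the call, 153 gained one and 16 moved. Of 1083 list medians, array weights included, 1037 stayed within the spread between replicates. The causes were not tested.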

Other observations

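Further lists gave few calls between knockouts and controls. The shares over all tested genes were 16.2% at an unadjusted p under 0.05 in limma, 9.32% with all knockouts above the controls and 8.01% with all below. Several counts below are near these shares. Of 11 tested lipid droplet proteins Cidea alone rose, and the median difference was 0.15. Of 16 genes of fatty acid uptake and activation Fabp3 and Slc27a2 rose and the median was 0.00. Acsf2, an acyl-CoA synthetase of mitochondria, read 10.77, 10.96 and 10.91 in controls and 12.06, 12.91 and 12.44 in knockouts (1.59 ± 0.24, adjusted p = 0.0520), so that its groups did not overlap but it did not pass. The 10 acyl-CoA thioesterases had 0 calls in limma (5 unadjusted), 5 members above the controls on all knockouts and a median of 0.52. Among 25 genes of glucose transport and glycolysis 0 passed (7 unadjusted), 4 were above and 1 below, and the median was 0.18. Pgk1, phosphoglycerate kinase, read 12.93, 13.36 and 13.14 against 13.64, 15.66 and 14.74 (1.54 ± 0.45, adjusted p = 0.165). The 17 triglyceride genes, with Gpat3 and its former symbol Agpat9 as separate entries, had a median of 0.06. Gpd2, the mitochondrial glycerol phosphate dehydrogenase, read 11.62, 11.94 and 11.74 against 12.03, 13.81 and 13.08 (1.21 ± 0.40, adjusted p = 0.206).

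Among stress and hormone lists, Pdia6 was the 1 call of 21 endoplasmic reticulum genes, where Xbp1, a factor of the unfolded protein response, read 11.87, 11.20 and 11.50 against 10.57, 10.37 and 10.56 (-1.02 ± 0.20, adjusted p = 0.0807). The median of that list was 0.03. The 23 glutathione and antioxidant genes had 0 calls in limma (8 unadjusted) and a median of -0.05. Immediate early genes (17 tested, 3 unadjusted) and thyroid hormone and retinoid genes (14 tested, 2 unadjusted) had 0 calls and medians of 0.06 and -0.06. Of 17 glucocorticoid and fasting responsive genes Pdk4 alone rose, with a median of -0.11. Of 18 adipokines and secreted factors Nampt alone rose, with a median of -0.30. The iron list had a median of 0.00 and the NAD list 0.02, amino acid transporters 0.13, mitochondrial carriers 0.51, lipolysis genes -0.25, ketone body genes -0.21, insulin and IGF genes -0.08 and BMP and activin genes -0.07. Neutrophil, mast cell and eosinophil markers (9 tested, 1 unadjusted) had 0 calls and a median of -0.05.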
